A study of Mus musculus with 6 samples.

Results

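Control C2C12 cells were followed from proliferation to 48 h of differentiation, as 3 of the 6 libraries of the series. The 3 libraries are 1 of differentiated cells (called MT in the labels) and replicates 1 and 2 of proliferating myoblasts (called MB). C2C12 is a line of mouse myoblasts, from strain C3H by the labels, whose cells leave the cell cycle, fuse and build contractile fibres when growth factors are withdrawn. All control cells had received a lentiviral short hairpin against luciferase (sh-Luc). The other 3 libraries, 1 MT and 2 MB, had the same design with a hairpin against Kap1, the chromatin scaffold protein encoded by Trim28. MB cells grew in 10% FCS, and MT cells spent 48 h in 2% horse serum with insulin, transferrin and selenium. RNA was cytoplasmic and polyadenylated. The deposited names of the MT library and of MB replicate 1 carry the mark "old", which the name of MB replicate 2 lacks, and no source used here explains it. No label says that the libraries stem from separate cultures, so the tests below see the spread of these samples only, and that spread may be technical.

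Skeletal myogenesis is driven by a small family of basic helix-loop-helix factors. Myf5 and Myod1 commit cells to the lineage, and Myog, together with factors of the MEF2 family, switches on the genes of the sarcomere, the contractile unit. Exit from the cell cycle, which relies on cyclin-dependent kinase inhibitors and the retinoblastoma protein, precedes the fusion of cells into multinucleated myotubes.

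Counts on genes came to 41951504 and 40654627 in MB replicates 1 and 2 and to 49839994 in MT. Across the series they ranged from 36247530 to 49839994. Trim28 stood at 596 and 428 CPM (counts scaled to library size with TMM factors) in MB control and at 393 CPM in MT control, against 102 to 150 CPM in the knockdown libraries. The 10 fixed markers of differentiated muscle summed to 80.8 and 280 CPM in the MB libraries and to 10909 CPM in MT. The 8 myoblast markers summed to 646, 1228 and 2544 CPM, with Pax7 under 1 CPM in each library. Markers of neural, endothelial, blood and epithelial cells summed to 0.353 to 0.681 CPM, with Adgre1 and Rbfox3 at 0. The adipocyte markers Adipoq and Plin1 and the osteoblast marker Ibsp were also at 0, but other members of their lists were not. In MB replicate 1, MB replicate 2 and MT the adipocyte markers summed to 27.8, 11.5 and 3.78 CPM, mostly from Pparg. Osteoblast and chondrocyte markers summed to 82.8, 68.9 and 49.2 CPM, with Runx2 at 51.6, 47.3 and 23.5 CPM and Sox9 at 29.8, 21.1 and 24.4 CPM.

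Each gene was first placed by its rank among the 3 libraries. Of 16472 tested genes, 6658 (40.4%) were above both MB libraries and 6681 (40.6%) were below both. The distance was then measured from the nearer MB library, on the scale log2(CPM + 0.5), which understates the change of low genes. At least 2-fold above both stood 1439 genes (8.74%), and at least 2-fold below both stood 537 (3.26%). At 4-fold these counts were 558 (3.39%) and 37 (0.225%), so large differences lay mostly on the higher side. The MB libraries themselves differed: replicate 2 was at least 2-fold above replicate 1 at 520 genes (3.16%) and below it at 395 (2.4%). MT was at least 2-fold above replicate 1 at 1912 genes (11.6%) and below it at 1010 (6.13%), and above replicate 2 at 1842 (11.2%) and below it at 963 (5.85%). A gene that far beyond both is also that far beyond each alone. Here and in the lists below, counts against a single MB library can thus only be equal or larger.

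With 1 MT library, any test borrows its spread from the MB libraries and the knockdown pair. In edgeR's quasi-likelihood fit of the 6 libraries by group, 0 genes passed after Benjamini-Hochberg adjustment (smallest adjusted p = 0.0522), although 4174 had an unadjusted p under 0.05, 2215 of them higher in MT, and DESeq2 called 1292 higher and 1092 lower. With the file mark as a term, edgeR called 3670 genes higher (22.3%) and 3728 lower (22.6%). That term lets MT be read mainly against MB replicate 1, which carries the same mark, and it leaves 1 residual degree of freedom. Of the 2-fold sets, 1399 of 1439 (8.49% of tested genes) and 532 of 537 (3.23%) were also called with the term. Sets and calls come from the same counts, so this overlap was largely fixed in advance and is no independent check. Below, "rose" and "fell" are used only of genes called in that fit, every adjusted p is from it unless said otherwise, and fold values are distances from the nearer MB library.

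**Figure D1:**
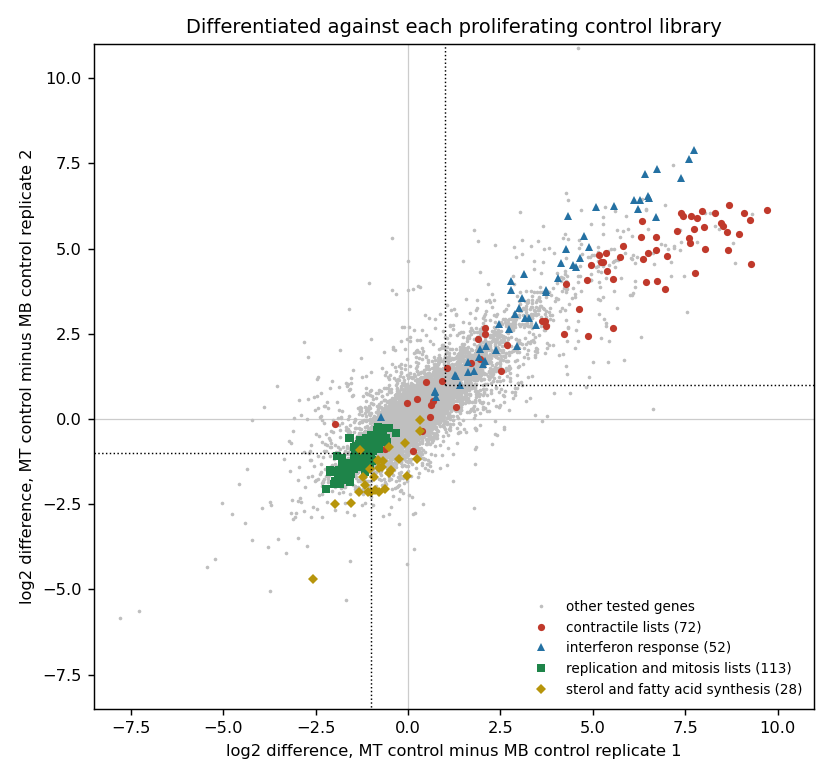
Log2 difference of MT from MB control replicate 1 (x axis) and from replicate 2 (y axis) on the log2(CPM + 0.5) scale, with 1 point per tested gene and the dotted lines bounding genes at least 2-fold beyond both. Interferon response genes lie close to the diagonal, with list medians of 3.22 against replicate 1 and 3.75 against replicate 2, while the contractile lists lie further from replicate 1 than from replicate 2.

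Genes that commit and drive muscle cells were mostly, but not all, higher in MT. The myogenic regulator list had 27 tested members, of which 18 were above both MB libraries, 11 at least 2-fold, and 4 below both, none of these 2-fold. With the mark term 20 rose and 2 fell, and the median log2 difference from the MB mean was 0.635, against -0.00884 over all tested genes. Myog, which starts terminal differentiation, had 1.28 and 33.8 CPM in MB replicates 1 and 2 and 818 CPM in MT, 23.9-fold above the nearer library (adjusted p = 3.73e-10, edgeR with the mark term). MT was far above both, although replicate 2 already held many times the level of replicate 1. Myod1, at 11.9, 31.8 and 239 CPM, rose (7.42-fold, adjusted p = 0.0241, edgeR). Its partner Mef2c rose from 0.121 and 1.51 CPM to 22.3 CPM (adjusted p = 1.54e-07, edgeR), and Mef2a from 67.1 and 120 CPM to 481 CPM. The early factor Myf5 took the opposite order, at 83.5 and 70.3 CPM in MB and 35.8 CPM in MT, but did not pass (adjusted p = 0.345, edgeR). Myf6, a factor of late fibres, stayed at or under 0.353 CPM in the 3 libraries.

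The list of repressors of myogenesis, which also holds Hes6, a gene that promotes it, showed no common direction. Of its 18 tested genes 3, Hes6 among them, were at least 2-fold above both MB libraries and 1 was below. In the list 5 rose and 6 fell, beside 22.3% and 22.6% of all tested genes. The Id proteins bind and inactivate the myogenic partners. Id1 had 174 CPM in MB replicate 1, 39.5 in replicate 2 and 47.3 in MT, and Id3 had 275, 76.8 and 78 CPM, so MT lay between the MB libraries in both cases. Both fell with the mark term (adjusted p = 0.00534 and 0.0083, edgeR), a call that rests on replicate 1. Twist2, a repressor of Myod1, was below both, falling from 37.5 and 23.1 CPM to 6.46 CPM (3.39-fold, adjusted p = 3.08e-06), with 47% of its exon length shared with another gene. Hes6, which promotes myogenesis, rose from 16.9 and 46.6 CPM to 197 CPM.

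Genes of the contractile apparatus were far above both MB libraries in MT. Of 15 myosin chain genes 14 were at least 2-fold above both MB libraries, as were 13 of 19 thin filament genes and 32 of 38 genes of titin, the M line and the Z disc. In these lists 13, 14 and 36 members rose and 0, 2 and 1 fell. Median log2 differences were 6.08, 5.68 and 4.28. Together these lists, counted with members outside the 72 tested genes, took 0.365% and 0.346% of counts in the MB libraries and 2.47% in MT. The 95% Wilson intervals were 0.363 to 0.367%, 0.344 to 0.348% and 2.47 to 2.48%, and these intervals cover counting error only. The embryonic myosin heavy chain Myh3 had 2.1 and 30.6 CPM in MB and 2197 CPM in MT, 70.6-fold above replicate 2 (adjusted p = 0.0158, edgeR). The skeletal and cardiac actins Acta1 and Actc1 rose from 5.97 and 30.6 CPM to 2038 CPM and from 4.35 and 25.4 CPM to 1996 CPM. Ttn, the giant elastic protein titin, rose from 6.07 and 23.5 CPM to 1633 CPM. In Myh3, Acta1, Actc1 and Ttn, MT was 65.7-fold to 77.2-fold above the nearer MB library, and replicate 2 was above replicate 1. That order held for 62 of the 72 genes, against 49.9% of all tested genes.

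Troponins, which place calcium control on the thin filament, followed. Tnnt3 was at 0.967, 12.5 and 585 CPM, Tnni2 at 0.363, 5.3 and 308 CPM and Tnnt1 at 0.556, 13.3 and 428 CPM in MB replicate 1, MB replicate 2 and MT. Each rose, by 31-fold (Tnnt1) to 53.3-fold (Tnni2) over replicate 2. Tpm1, a tropomyosin that many cell types make, had 1482, 1154 and 1748 CPM and did not pass (adjusted p = 0.134, edgeR), whereas Tpm2 rose from 668 and 487 CPM to 2499 CPM. Within the 11 myosin heavy chain genes, levels per kb of exon shifted from the nonmuscle chain Myh9, with 88.8% and 83.8% of the family in MB and 23.4% in MT, to Myh3, with 0.135%, 2.02% and 59.6%. Fast adult chains were detected at lower level: Myh1 took 5.37% and Myh4 0.66% of the family in MT. The heavy chains are near-identical in parts of their sequence, so the split between them is uncertain.

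The actin family changed its makeup in the same way. Per kb of exon, Actb and Actg1, the cytoskeletal actins, made up 30.7% and 30.3% of the 6 actin genes in MB replicate 1, 37.3% and 38.1% in replicate 2, and 8.06% and 8.87% in MT. Acta1 passed from 0.107% and 0.742% in the MB libraries to 21.8% in MT and Actc1 from 0.0738% and 0.585% to 20.2%. Acta2, the smooth muscle actin that C2C12 cells also make, had 2690 and 1236 CPM in MB and 5264 CPM in MT. Actb, often used as a loading control, fell from 3001 and 2681 CPM to 1318 CPM (2.03-fold, adjusted p = 0.000217, edgeR).

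**Figure D2:**
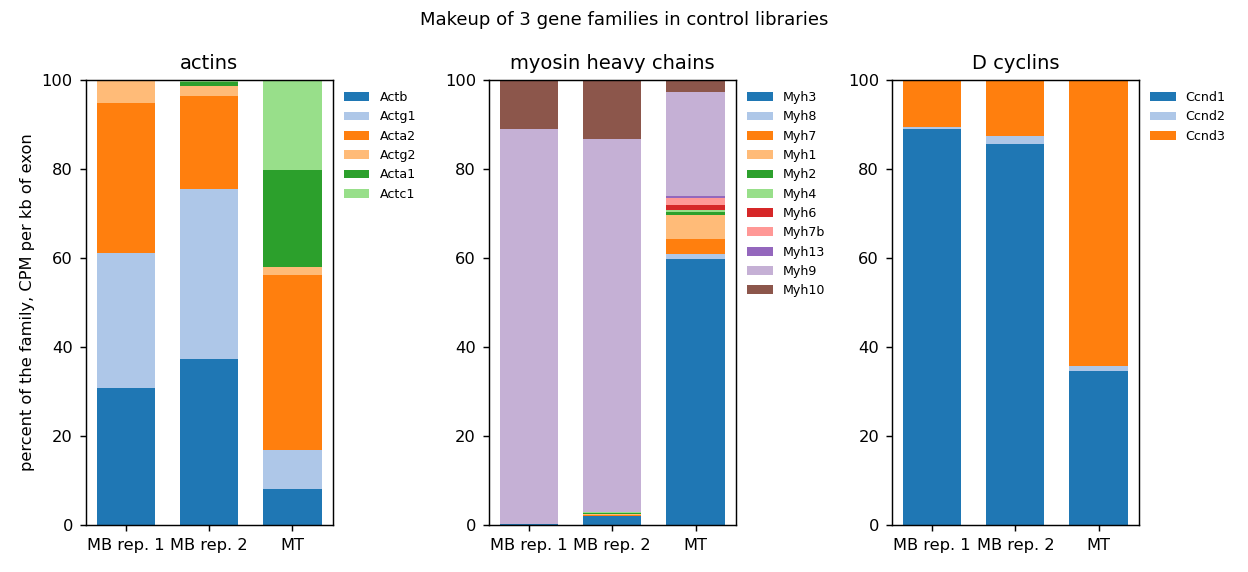
Share of each member in the level per kb of exon of its family (y axis, percent) for MB control replicates 1 and 2 and MT control, 1 bar per library, for actins, myosin heavy chains and D cyclins. Myh3 takes 59.6% of the myosin heavy chains in MT and 2.02% or less in MB, and Ccnd3 takes 64.4% of the D cyclins in MT against 12.5% or less in MB.

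A few genes of cell fusion were far above both MB libraries. Of 30 fusion and adhesion genes 7 were at least 2-fold above both and 1 below, with 19 rising and 3 falling and a median log2 difference of 0.383. Among all tested genes 8.74% and 3.26% were that far above and below, and 22.3% rose and 22.6% fell. Mymk, the membrane protein myomaker that fuses myoblasts, had 0.484 and 9.28 CPM in MB and 627 CPM in MT (64.1-fold, adjusted p = 3.73e-10, edgeR). Its partner Mymx, myomixer, had 0.121, 2.3 and 90.5 CPM (32.5-fold). The adhesion molecule Ncam1 rose from 98.4 and 107 CPM to 425 CPM, and Dysf, dysferlin, which repairs membranes, from 8.05 and 9.91 CPM to 51.3 CPM. For these last 2 the MB libraries were close to each other. Cdh15, M-cadherin, had 48.7, 157 and 271 CPM (1.72-fold, adjusted p = 0.0233, edgeR), and Alcam, an adhesion molecule, fell from 62.6 and 70.4 CPM to 10.8 CPM (5.56-fold).

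Genes that join membrane excitation to calcium release were also higher. Of 28 such genes 22 were at least 2-fold above both MB libraries, with 23 rising and 2 falling and a median of 3.30. The calcium store protein Casq2 had 0.919 and 8.5 CPM in MB and 451 CPM in MT (50.1-fold, adjusted p = 3.92e-10, edgeR). The release channel Ryr1 went from 0.895 and 8.12 CPM to 317 CPM and the calcium pump Atp2a1 from 0.75 and 13.8 CPM to 608 CPM, and both rose. Cacng1, a calcium channel subunit, lay 8.54-fold above both at 221 CPM but did not pass (adjusted p = 0.114, edgeR), with 16.3 and 25.4 CPM in MB. Sodium and calcium channel genes as a family had 10 of 24 members at least 2-fold above and 0 below, and potassium channels 8 and 4 of 36. Of all tested genes 8.74% and 3.26% were that far above and below both.

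At the neuromuscular synapse, 12 of 19 genes were at least 2-fold above both MB libraries, with 15 rising and 2 falling and a median of 2.29. The acetylcholine receptor subunit Chrna1 rose from 59.3 and 110 CPM to 725 CPM (6.56-fold, adjusted p = 1.89e-05, edgeR), and the fetal subunit Chrng from 0.242 and 8.68 CPM to 331 CPM (36.1-fold). Chrng took 0.273% and 4.26% of the 5 subunit genes per kb in MB and 23.0% in MT, while the adult subunit Chrne took 0.00354% in MT. Chrnd, with 1.33, 26.7 and 144 CPM, did not pass (adjusted p = 0.0685, edgeR). The dystrophin complex, which ties the cytoskeleton to the matrix, had 11 of 25 members at least 2-fold above, with 17 rising and 3 falling. Its membrane core Dag1 rose from 152 and 198 CPM to 814 CPM and the sarcoglycan Sgca from 1.02 and 3.25 CPM to 54.8 CPM, whereas Dmd itself reached 1.3 CPM.

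Energy supply genes of muscle rose in part. Of 30 such genes 17 were at least 2-fold above both MB libraries and 1 was below, with 20 rising and 1 falling. Pygm, muscle glycogen phosphorylase, had nearly equal MB levels of 2.32 and 2.02 CPM and 109 CPM in MT (38.7-fold, adjusted p = 1.83e-08, edgeR). Pgam2, the muscle phosphoglycerate mutase, rose from 1.28 and 2.02 CPM to 79.9 CPM and the muscle creatine kinase Ckm from 0.193 and 2.52 CPM to 200 CPM. Ckm reached 51.1% of the creatine kinase genes per kb, from 2.53% and 8.88%, and the brain form Ckb made up 48.8%. The general glycolysis list moved less, with 1 of 16 members at least 2-fold above both, 8 rising and 0 falling, and a median of 0.346. Respiratory chain genes had 13 of 41 above and 19 below both, none 2-fold, beside 40.4% and 40.6% of all tested genes. With the mark term 3 of them rose and 3 fell, beside 22.3% and 22.6% of all tested genes. The sign of their median changed with the MB library used (0.033 against replicate 1, -0.185 against replicate 2).

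**Figure D3:**
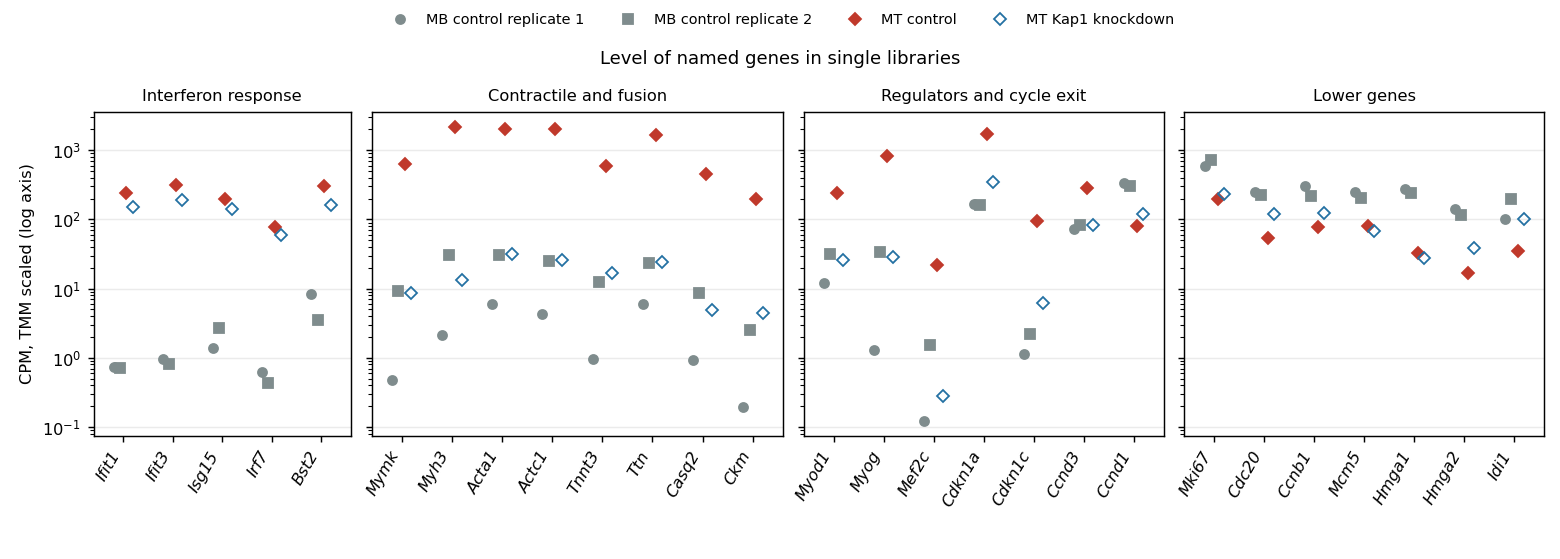
CPM of named genes on a log axis in single libraries: MB control replicate 1 (circles), MB control replicate 2 (squares), MT control (filled diamonds) and MT Kap1 knockdown (open diamonds). For the interferon genes Ifit1 and Ifit3 the MT libraries sit at 152 to 312 CPM and the MB control libraries at 0.706 to 0.967 CPM, while for Myh3 and Acta1 the MT control sits at 2197 and 2038 CPM and the MT knockdown at 13.2 and 31.6 CPM.

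Genes of the interferon response, the program by which cells resist viruses, were far above both MB libraries in MT. Secreted interferons act through a transcription factor complex that holds STAT2 and IRF9 and binds a DNA element called ISRE in the promoters of these genes. Of 52 tested members 51 were above both MB libraries and 48 at least 2-fold, with 50 rising and 1 falling and a median of 3.37. The member that fell was Ifitm1 (8.63, 4.84 and 5.02 CPM), and Ifit1 did not pass. The list took 0.111% and 0.109% of counts in MB and 0.65% in MT (95% Wilson intervals 0.11 to 0.112%, 0.108 to 0.11% and 0.648 to 0.652%). Against MB replicate 1 alone and replicate 2 alone the number at least 2-fold above was again 48, and it could not have been lower. Replicate 2 was above replicate 1 at 20 of the 52 genes.

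Among the antiviral effectors, Ifit3, which blocks viral RNA, had 0.967 and 0.807 CPM in MB and 312 CPM in MT, the largest distance of any gene by the naming rule (213-fold, adjusted p = 0.0122, edgeR). Its neighbour Ifit1 had 0.725, 0.706 and 240 CPM (196-fold, adjusted p = 0.0934, edgeR). Both MB libraries were low and alike in these genes. Isg15, a ubiquitin-like modifier, rose from 1.38 and 2.72 CPM to 195 CPM (60.8-fold, adjusted p = 0.000509), and its protease Usp18 from 0.484 and 0.0757 CPM to 83.5 CPM. Bst2, which tethers virus particles to the cell, rose from 8.42 and 3.53 CPM to 300 CPM. The enzyme gene Oas2 had 2 counts over the MB libraries and 2045 in MT, a ratio of 1710 (95% exact interval 473 to 14126). Rsad2, which encodes viperin, had 3 and 564 counts, a ratio of 314 (107 to 1529), and Oas1g had 0 and 259 counts, at least 144-fold higher against a floor of 3 counts over both MB libraries. These intervals and the floor cover counting error only. Oas1a and Oas1g, like Ifit3 and Ifit3b, have near-identical relatives and could share reads.

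Components of the pathway rose too. Stat2 rose from 26.4 and 28.2 CPM to 180 CPM and Irf9 from 9.84 and 8.12 CPM to 82.1 CPM. Irf7, the factor that amplifies the response, rose from 0.629 and 0.429 CPM to 78.4 CPM (69.9-fold, adjusted p = 3.39e-09, edgeR). The RNA sensors Ddx58 and Ifih1 rose from 21.9 and 19.4 CPM to 167 CPM and from 2.59 and 4.52 CPM to 33.8 CPM. In all of these MT was above both MB libraries. B2m, the light chain of the class I molecules that present antigen, went from 232 and 184 CPM to 1283 CPM and the heavy chain H2-D1 from 43 and 39.5 CPM to 167 CPM. The immunoproteasome subunits Psmb8 and Psmb10 were the 2 of 37 proteasome genes at least 2-fold above both. Genes of interferons themselves were near 0: the 11 in the files summed to 1 and 2 counts in MB and 15 in MT, 8 of these on Ifng and 4 on Ifnb1. These ligand genes were looked up after the list values had been seen.

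The 250 bases before the RefSeq start of Ifit1 and Isg15, both far above the MB libraries in MT although Ifit1 did not pass, are shown for the ISRE core they contain. Sequences are from RefSeq on build GRCm38.p6 and are written 5′ to 3′ on the gene's strand. Capitals mark the ISRE core, which is GAAA, any 2 bases and GAAA again, or its reverse complement, and overlapping matches in Isg15 form 1 run. Ifit1 lies at chr19:34640639-34640888 on the plus strand and Isg15 at chr4:156200819-156201068 on the minus strand.
Ifit1: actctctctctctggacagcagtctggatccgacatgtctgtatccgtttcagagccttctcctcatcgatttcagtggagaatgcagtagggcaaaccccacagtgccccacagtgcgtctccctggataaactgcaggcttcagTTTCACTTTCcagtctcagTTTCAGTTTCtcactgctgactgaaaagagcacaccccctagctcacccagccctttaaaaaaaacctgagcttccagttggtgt
Isg15: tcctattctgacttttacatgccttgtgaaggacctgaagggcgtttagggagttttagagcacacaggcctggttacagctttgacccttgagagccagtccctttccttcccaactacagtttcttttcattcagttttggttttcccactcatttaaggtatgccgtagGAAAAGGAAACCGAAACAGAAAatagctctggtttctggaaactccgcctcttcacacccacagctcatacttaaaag
Ifit1 held 2 matches, starting 104 and 85 bases before the start, and Isg15 held 3, starting 78, 72 and 66 bases before it. Over the list, 15 of the 40 members with a promoter sequence held the core on either strand (37.5%), against 361 of 11024 tested genes (3.27%). The matches describe letters in this window and not binding.

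Chemokines and cytokines, some of them interferon targets, were mixed. Of 28 such genes 8 were at least 2-fold above both MB libraries and 0 below, with 16 rising and 6 falling. Among all tested genes 8.74% and 3.26% were that far above and below, and 22.3% rose and 22.6% fell. Cxcl10, a chemokine that attracts T cells, rose from 0.629 and 0.101 CPM to 44.6 CPM (39.9-fold, adjusted p = 3.89e-07, edgeR), and the monocyte attractant Ccl8 from 1.4 and 0.353 CPM to 35.8 CPM. Ccl2 stood at 538 CPM in MB replicate 1, 15.8 in replicate 2 and 259 in MT, and Cxcl1 at 151, 5.58 and 151 CPM. For Ccl2 and Cxcl1, the MB libraries differed by more than MT differed from replicate 1.

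Genes of the dividing cell were lower in MT. All 52 tested replication genes and all 61 tested genes of mitosis and cytokinesis were below both MB libraries, where 40.6% of all tested genes were. With the mark term 51 and 60 of them fell and 0 rose. At least 2-fold below both stood 13 replication and 49 mitosis genes, together 11.5% of the 537 genes that far below. The median level in MT was 52.3% of the MB mean for replication genes and 36.2% for mitosis genes. The count of 13 was 29 against MB replicate 1 alone and 14 against replicate 2 alone. In bulk RNA, fewer dividing cells and less of each RNA per cell cannot be told apart.

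Cdc20, which activates the complex that ends mitosis, had 253 and 227 CPM in MB and 53.8 CPM in MT (4.19-fold, adjusted p = 2.5e-05, edgeR). Cyclin B1, Ccnb1, fell from 300 and 220 CPM to 76.9 CPM, and the mitotic kinase Aurka from 166 and 112 CPM to 37.8 CPM. The proliferation antigen Mki67 fell from 582 and 713 CPM to 197 CPM. MT was below both MB libraries in each of these. Among replication genes, the helicase subunit Mcm5 fell from 245 and 205 CPM to 81 CPM (2.51-fold) and the polymerase clamp Pcna from 337 and 336 CPM to 191 CPM (1.76-fold).

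The same window before the start of Cdc20, chr4:118437344-118437593 on the minus strand of GRCm38.p6, is shown with its CCAAT boxes and its CHR motif in capitals. The CHR letters searched were TTTGAA and TTCGAA, and both motifs were searched on both strands.
Cdc20: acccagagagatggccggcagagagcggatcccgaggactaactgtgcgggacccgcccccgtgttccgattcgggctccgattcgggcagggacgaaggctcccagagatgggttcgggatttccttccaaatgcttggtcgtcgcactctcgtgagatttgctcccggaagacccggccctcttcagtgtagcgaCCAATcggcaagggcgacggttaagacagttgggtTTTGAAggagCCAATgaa
The CHR match starts 18 bases before the start and the CCAAT matches 53 and 8 bases before it. Of 52 mitosis genes with a promoter sequence 19 held a CHR motif (36.5%) and 35 a CCAAT box (67.3%). For replication genes these shares were 20% and 65% of 40, and for all 11024 tested genes 14.9% and 40.4%.

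Genes of cell cycle exit did not move as 1 group. Of 30 such genes 8 were at least 2-fold above and 2 below both MB libraries, with 10 rising and 11 falling. The shares of all tested genes were 8.74% and 3.26% at 2-fold, and 22.3% and 22.6% rising and falling. The kinase inhibitor Cdkn1a (p21) had near-equal MB levels of 166 and 163 CPM and 1718 CPM in MT (10.3-fold, adjusted p = 0.00746, edgeR). Cdkn1c (p57) rose from 1.14 and 2.22 CPM to 94.1 CPM (34.8-fold), with 31% of its exon length shared with another gene. Cdkn1b (p27) had 65.9, 77.8 and 63.3 CPM and did not pass (adjusted p = 0.739, edgeR). The retinoblastoma gene Rb1 rose from 31.9 and 48.1 CPM to 129 CPM. Cyclin D1, Ccnd1, fell from 332 and 308 CPM to 81.5 CPM, while Ccnd3 rose from 73.2 and 84 CPM to 284 CPM, so that Ccnd3 passed from 10.5% and 12.5% of the D cyclins per kb to 64.4%. Of 24 p53 targets 5 were at least 2-fold above both and 0 below, among them Cdkn1a and the cell death gene Pmaip1 (1.57, 2.32 and 17.8 CPM).

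Sterol and fatty acid synthesis genes were lower in MT. Of 28 tested, 25 were below both MB libraries and 0 above, with 21 falling and 0 rising. The 8 at least 2-fold below both became 9 against MB replicate 1 alone and 23 against replicate 2 alone, since 27 of the 28 were higher in replicate 2. Elovl6, a fatty acid elongase, fell from 116 and 164 CPM to 29 CPM and Idi1, an isoprenoid isomerase, from 103 and 196 CPM to 35 CPM. Scd1, a desaturase, at 245, 760 and 240 CPM, was close to MB replicate 1 and did not pass (adjusted p = 0.867, edgeR).

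Matrix genes were higher from an already high base. Of 52 tested, 22 were at least 2-fold above both MB libraries and 1 was below, with 34 rising and 6 falling and a median of 1.20. The list took 2.95% and 3.12% of counts in MB and 7.19% in MT (95% Wilson intervals 2.95 to 2.96%, 3.11 to 3.12% and 7.18 to 7.19%). Without MB replicate 2 the number at least 2-fold above was 30 and without replicate 1 it was 26. The fibrillar collagen Col1a1 had 3342, 3634 and 9432 CPM (2.6-fold, adjusted p = 1.94e-05, edgeR), and fibronectin, Fn1, 2805, 2715 and 10635 CPM (3.79-fold). Larger distances belonged to Postn, a matricellular protein (234, 119 and 2931 CPM, 12.5-fold), and to the microfibrillar collagens Col6a1 (261, 250 and 1701 CPM) and Col6a2 (98.8, 66.7 and 906 CPM), all of which rose. Spp1, osteopontin, fell from 2346 and 2801 CPM to 747 CPM (3.14-fold). The fixed fibroblast markers summed to 194, 137 and 281 CPM, of which Ly6a gave 137, 119 and 235 CPM, with Thy1 and Dpp4 under 1 CPM. The smooth muscle markers summed to 3321, 1422 and 5748 CPM, of which Acta2 gave 2690, 1236 and 5264 CPM, with Myh11 under 1 CPM. Of these 6 markers only Lmod1 was at least 2-fold above both MB libraries, and Tagln, Cnn1 and Actg2 lay between them. The part of both marker sets in the matrix values was not tested.

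Growth factor genes of the IGF axis, which promote muscle differentiation, had 8 of 23 members at least 2-fold above both MB libraries and 0 below. Igf2 had 2.61 and 21.6 CPM in MB and 1056 CPM in MT (47.9-fold, adjusted p = 1.33e-06, edgeR), although 65% of its exon length overlaps another gene. The imprinted noncoding RNA H19, its neighbour, rose from 199 and 1769 CPM to 8704 CPM. Igf1 had 0.29, 1.54 and 52.2 CPM and did not pass (adjusted p = 0.15, edgeR). Igfbp5, an IGF carrier, stood at 14.6 CPM in replicate 1, 1239 in replicate 2 and 1504 in MT, so its distance from the nearer library was 1.21-fold. In the TGF beta list 6 of 29 were at least 2-fold above and 1 below, beside 8.74% and 3.26% of all tested genes. Fst, the myostatin antagonist follistatin, rose from 9.12 and 1.36 CPM to 185 CPM (19.3-fold), and Grem1, a BMP antagonist, fell from 427 and 175 CPM to 31.9 CPM.

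Notch and Wnt genes had 8 of 40 members at least 2-fold above both MB libraries and 2 below, beside 8.74% and 3.26% of all tested genes. The Notch ligand Dll1 rose from 0.967 and 4.74 CPM to 69.6 CPM (13.4-fold, adjusted p = 2.6e-07, edgeR), and Porcn, needed for Wnt secretion, from 8.29 and 7.29 CPM to 64.9 CPM. Lgr4, a receptor of R-spondins, fell from 132 and 134 CPM to 41.6 CPM. Ubiquitin ligase families held muscle members among the raised ones: of 50 Trim genes 12 were at least 2-fold above both, including Trim72, a membrane repair protein (0.435, 2.88 and 116 CPM), Trim63, which marks sarcomere proteins for degradation (0.193, 0.555 and 25.4 CPM), and the interferon target Trim30a (4.18, 3.91 and 77.2 CPM). The kelch-like genes Klhl40 and Klhl41, which stabilise thin filaments, rose to 44.8 and 244 CPM from at most 5.73 CPM.

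Genes furthest below both MB libraries came from no single list. Prl2c2, a proliferin hormone of growing cells, had 478 and 123 CPM in MB and 1.65 CPM in MT (57.2-fold, adjusted p = 0.0053, edgeR), and Prl2c3 had 193, 61 and 0.743 CPM, but these copies are near-identical and could share reads. The integrin subunit Itgb7 fell from 47.3 and 21.6 CPM to 0.599 CPM. Aqp1, a water channel, fell from 274 and 276 CPM to 23.5 CPM (11.4-fold, adjusted p = 6.92e-05), and Car8, a relative of carbonic anhydrases, from 65.1 and 41.1 CPM to 3.03 CPM. The chromatin architectural proteins Hmga1 and Hmga2, typical of dividing precursor cells, fell from 278 and 244 CPM to 33 CPM and from 141 and 117 CPM to 16.8 CPM. In the chromatin list 7 of 45 genes were at least 2-fold below both and 2 above, beside 3.26% and 8.74% of all tested genes. The 2 above included the muscle methyltransferase Smyd1 (0.218, 5.85 and 87.9 CPM). Of the 537 genes at least 2-fold below both, 411 were in none of the 52 lists, as were 1091 of the 1439 above.

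Housekeeping machinery was slightly lower as a whole. Of 84 cytoplasmic ribosomal protein genes 79 were below both MB libraries and 1 above, none 2-fold, with 47 falling and 0 rising and a median of -0.323. Mitochondrial ribosomal proteins had 70 of 80 below both (median -0.379), the cytosolic tRNA synthetases 18 of 18 (median -0.391) and proteasome subunits 31 of 37 (median -0.422). Each value lies beside an all-gene median of -0.00884, which was -0.0181 with scaling to total counts. Histone genes, whose main transcripts lack a polyA tail, had 12 of 60 at least 2-fold above both and 1 below, beside 8.74% and 3.26% of all tested genes. The linker histone Hist1h1c rose from 25.1 and 49.3 CPM to 161 CPM, and the replication-independent H2afz fell from 555 and 573 CPM to 233 CPM. The nuclear noncoding RNAs Malat1 (702, 275 and 1985 CPM) and Neat1 (230, 151 and 625 CPM) rose in this cytoplasmic RNA, beside a share of reads outside any gene of 6.67% and 5.18% in MB and 8.07% in MT, and their part in other values was not tested.

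Among genes far above both MB libraries, MB replicate 2 more often took the side of MT. Of the 1439 genes at least 2-fold above both, 879 (61.1%) were higher in replicate 2 than in replicate 1, against 49.9% of all tested genes. Over the 223 genes of the 9 muscle lists replicate 2 was above replicate 1 at 173, with a median log2 difference of 0.506. These 9 lists, counted with their untested members, took 1.73% and 2.00% of counts in MB and 5.0% in MT. The promoters of 2 raised muscle genes are shown for their E-box CAGCTG, the element that myogenic factors bind, in capitals with the CArG box of Acta1, an element of serum response factor. Chrna1 lies at chr2:73580339-73580588 and Acta1 at chr8:123894776-123895025, both on the minus strand of GRCm38.p6.
Chrna1: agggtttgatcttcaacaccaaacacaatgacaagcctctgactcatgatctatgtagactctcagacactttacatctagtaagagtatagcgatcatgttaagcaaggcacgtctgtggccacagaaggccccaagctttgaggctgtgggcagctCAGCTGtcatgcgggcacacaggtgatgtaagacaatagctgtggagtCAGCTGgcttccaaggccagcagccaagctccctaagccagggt
Acta1: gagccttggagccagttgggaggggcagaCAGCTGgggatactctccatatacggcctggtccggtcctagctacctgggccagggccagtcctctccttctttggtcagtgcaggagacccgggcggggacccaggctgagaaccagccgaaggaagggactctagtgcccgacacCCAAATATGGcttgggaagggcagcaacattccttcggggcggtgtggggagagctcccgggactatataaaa
Chrna1 held the E-box 92 and 44 bases before the start, and Acta1 held it 221 bases and the CArG box 73 bases before it. The E-box was found in 8 of 18 excitation coupling genes with a promoter sequence (44.4%), in 5 of 14 thin filament genes (35.7%) and in 4 of 14 myosin genes (28.6%), against 14.9% of tested genes. Other muscle lists ranged from 2 of 15 dystrophin complex genes (13.3%) and 3 of 18 myogenic regulators (16.7%) to 5 of 11 synapse genes (45.5%). The window of Myog held 0 matches to it. Among 14 thin filament genes 3 held a CArG box (21.4%), against 1.47% of tested genes.

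The knockdown series gives a second passage from MB to MT, with its own MB and MT libraries. There 547 genes (3.32%) were at least 2-fold above both MB knockdown libraries and 197 (1.2%) below. The test of the difference between the changes, an interaction in the same fit, called 0 genes by group alone (edgeR, smallest adjusted p = 0.848), with 825 at an unadjusted p under 0.05, while DESeq2 called 147 and 19. With the mark term 1092 genes (6.63%) had the higher change in control cells and 630 (3.82%) the lower. Of the 72 contractile genes 55 were in the first set and 0 in the second, and their median log2 difference was 5.05 in control and 0.677 in knockdown cells. Mymk, at 627 CPM in MT control, had 8.49 CPM in MT knockdown (adjusted p of the difference 6.97e-07, edgeR). Sterol genes, with a control median of -1.10, had a knockdown median of -0.0303, and 21 of 28 had the lower change in control cells. Mitosis genes fell further in control cells at 43 of 61, while replication genes differed at 2 in each direction of 52, with medians of -0.935 and -0.88.

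Interferon genes were also above both MB libraries in the knockdown passage. Of 52, 46 were at least 2-fold above both MB knockdown libraries, with a median of 2.80, beside 48 and 3.37 in control cells. The change was higher in control cells at 13 and lower at 0. Ifit3 had 188 CPM in MT knockdown beside 312 CPM in MT control, and Irf9 had 83.8 beside 82.1 CPM, with an adjusted p of the difference of 0.467 and 0.995 (edgeR), which does not show that they changed alike. Both MT libraries and the replicate 1 MB libraries carry the file mark. In MB knockdown, Ifit3 had 2.43 CPM in replicate 1 and 0.464 CPM in replicate 2. The list took 0.142% and 0.114% of counts in these 2 libraries and 0.565% in MT knockdown. The part of the mark in these values was not tested.

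**Figure D4:**
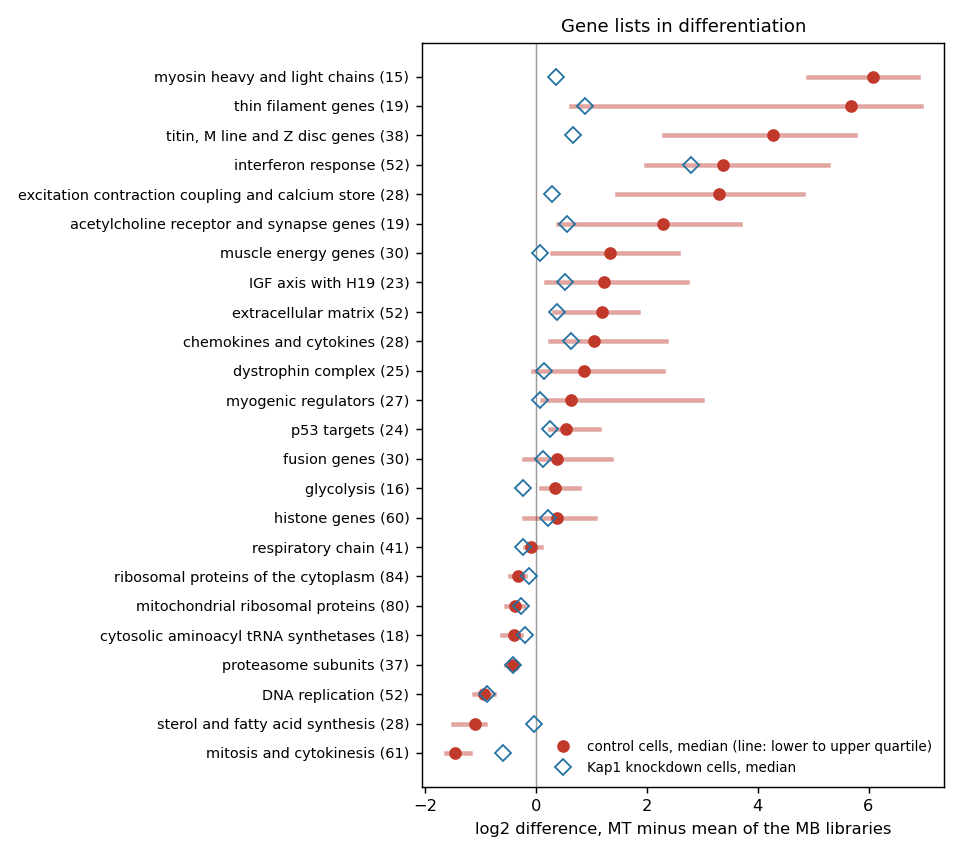
Median log2 difference between MT and the mean of the MB libraries for gene lists (number of tested genes in brackets) in control cells (filled circles, with a line from the lower to the upper quartile of the members) and in Kap1 knockdown cells (open diamonds). The interferon response stands at 3.37 and 2.80, the myosin chains at 6.08 and 0.351, and the replication genes at -0.935 and -0.88.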

How the data were processed

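The files deposited by the authors hold whole-number counts for 37991 Ensembl identifiers per library. TopHat2 2.0.11, HTSeq and mm9 are named for alignment, counting and genome, per the submitters' processing notes. No source used here gives the annotation release, counting mode or strand setting, so overlapping genes are marked as uncertain. Rows without a gene stayed out of library sizes: reads outside any gene were 5.18% to 8.07% and ambiguous reads 2.81% to 2.93%. Symbols came from a GENCODE annotation of a later build, matched on the identifier (32919 identifiers, 99.04% of counts), as did exon lengths.

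All 6 libraries entered a robust quasi-likelihood fit with TMM scaling and filterByExpr (edgeR 4.0.16, R 4.3.3), which left 16472 genes, with Benjamini-Hochberg adjustment at 0.05 over all of them. The fit by group alone was written down as the primary one. It has 2 residual degrees of freedom and a biological coefficient of variation of 32.9%, against 1 and 9.74% with the file mark as a term. Describing calls from the second fit was decided knowing that the first called none. The scripts were tested on simulated data. TMM factors ran from 0.972 to 1.07. Distances use a pseudocount of 0.5 CPM, and 1 count is worth 0.0201 to 0.0246 CPM in the control libraries. Alternatives were DESeq2 1.42.0, scaling to total counts, no filter on low counts, the 3 control libraries alone, other pseudocounts and folds, and leaving out each MB library.

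The comparison, the members and the lists were chosen with earlier results of these data known. A rule named the 15 largest distances each way at a minimum of 5 CPM in the higher group and the 5 smallest p each way. It also named up to 6 genes per list, members 2-fold beyond both MB libraries against their list, and a fixed panel of 32 genes. Not all of these are printed. Many printed genes fall outside the rule and were chosen after their values were seen, among them Isg15, Irf7, Stat2, Mef2a, Tpm2, Fn1, Pcna and Igfbp5. Genes with 1 to 3 counts over the MB libraries are given as ratios of counts with an exact interval, and those with 0 as a lower bound. Motifs were searched in the 250 bases before RefSeq starts (GRCm38.p6), which matched 11024 tested genes. No genome of the build the counts were made on was used. Some genes measured here are not reported.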

Additional observations from a re-analysis of the deposited data

Results flagged for a closer look

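The change from MB to MT differed between control and Kap1 knockdown cells, by the interaction in the fit with the file mark as a term. In that fit 1092 genes had the higher change in control cells and 630 the lower (edgeR, Benjamini-Hochberg). In the fit by group alone the same test called 0 genes, with 825 at an unadjusted p under 0.05, and each MT group is 1 library. Reads outside any gene, which no comparison of genes uses, made up 8.07% of the reads in the MT control library, against 6.67% and 5.18% in the MB control libraries and 7.89% in the MT knockdown library. Groups of 1 or 2 libraries are too small for a search for outlying samples.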

How the results depend on the processing

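With 1 MT library no result has a replicate check in MT. For MT against MB in control cells, the 0 calls higher and 0 lower of the edgeR fit by group became 3670 and 3728 with the replicate block (the file mark as a term), 3481 and 3904 with that block and total counts, 410 and 172 without the filter on low counts, 167 and 7 with the 3 control libraries only, 1292 and 1092 with DESeq2, and 2196 and 2095 with DESeq2 and the block. Leaving out single MB libraries gave 0 to 141 and 0 to 7 calls, and total counts alone gave 0 and 0. The difference from the knockdown change, at 0 and 0, became 1092 and 630 with the block, 147 and 19 with DESeq2, and 692 and 266 with both, and stayed at 0 under the other settings run. The cause of these moves was not tested beyond the spread each fit assumes. The labels do not say that a number marks a shared culture, only the MB groups share numbers, and no test was possible with the block once a library was left out, for want of residual degrees of freedom. The 1439 genes at least 2-fold above and 537 below both became 2491 and 1693 at 1.5-fold, 558 and 37 at 4-fold, and 6658 and 6681 at any distance. With a pseudocount of 0.1 CPM they were 1972 and 711, and with 2 CPM they were 993 and 398. With single MB control libraries left out the higher count was 1842 to 1912 and the lower count 963 to 1010, and both could only grow. Of 358 tested genes named by the rule, 4 changed direction. Genes named for a distance beyond both MB libraries could hardly do so when either library was left out. The count is therefore no check of those genes. Without MB replicate 1 and without replicate 2 the log2 changes were 0.26 and -1.86 for Id1 (-1.17 with both), 0.023 and -1.80 for Id3 (-1.17), 0.43 and -2.34 for Plin4 (-1.55), and 1.76 and -0.023 for Tagln (0.60), which was -0.16 with the block. Of the lists, 42 of 52 had a median of the same sign throughout.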
